A study of Homo sapiens with 16 samples.

Results

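The CDKN2A-CDKN2B-MTAP locus on the short arm of chromosome 9 (band 9p21) was examined in the peak lists of 8 ChIP-seq libraries. The members were all peaks that overlapped chr9:20000000-24000000 (hg19), a window of 4 Mb around the genes, and the rule used position alone. It held 35 of the 76863 peaks of the series, of which 32 were CTCF peaks at 24 of 29064 sites and 3 were p53 peaks at 3 of 2977 sites. A site is a set of peaks of 1 factor that overlap by at least 1 bp across libraries. ChIP-seq for CTCF and p53 had been done in MCF10A, an immortalized, nontransformed mammary epithelial cell line. These parental cells are labelled WT in the sample titles. It had also been done in G12V cells, the same line after lentiviral introduction of the HRas G12V oncogene together with a GFP vector. Each factor and cell type had 2 biological replicates, and the 8 ChIP samples and 8 inputs made up 16 samples. Cells for the p53 libraries had been treated with Nutlin before fixation, and those for the CTCF libraries carry no such label. Both cell types come from 1 cell line, but DNA copy number was not measured, so the same genome at the locus is not shown for both. No gene expression was measured in these files with which to check the cell type.

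CDKN2A encodes p16INK4A, which holds the cyclin D kinases CDK4 and CDK6 inactive and so keeps RB1 active, and, from another reading frame, p14ARF, which blocks MDM2 and so stabilises p53. CDKN2B, its neighbour, encodes the related inhibitor p15INK4B. MTAP encodes methylthioadenosine phosphorylase, the first enzyme of methionine salvage. The locus is often lost from tumor genomes, MTAP together with CDKN2A, and MCF10A is known to have lost it, but DNA copy number was not measured here. CTCF binds DNA through its zinc fingers and marks insulators and the borders of chromatin domains. Its peaks on the flanks and at the genes show where DNA was bound and recovered. In a peak list, DNA that is absent, DNA that is present but unbound and binding too weak to be called cannot be told apart.

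MTAP lies at chr9:21802635-21937650 on the plus strand, CDKN2A at chr9:21967751-21995300 and CDKN2B at chr9:22002902-22009304, both on the minus strand. None of the 8 lists had a peak within 10 kb of any of these 3 genes. The stretch from the start of MTAP to the end of CDKN2B is 206.67 kb long, and the nearest CTCF sites of any library lay 92.8 kb to its left and 207.7 kb to its right. The left one of these sites, with sites that other results below turn on, is shown first as the reference bases within 60 bp of the summit of the strongest peak, on the plus strand. Capitals mark a stretch of 12 bases that matches the CTCF core consensus with at most 1 mismatch on either strand.
Left edge of the interval without peaks, chr9:21709599-21709719: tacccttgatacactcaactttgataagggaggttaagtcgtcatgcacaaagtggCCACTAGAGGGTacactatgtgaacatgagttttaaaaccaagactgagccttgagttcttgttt
Second site to the right of the locus, beyond DMRTA1, chr9:22470042-22470162: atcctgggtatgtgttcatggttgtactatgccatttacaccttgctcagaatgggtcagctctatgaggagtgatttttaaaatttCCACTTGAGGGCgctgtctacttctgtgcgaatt
Upstream of MLLT3, the only site with a peak in all 4 CTCF libraries, chr9:20624930-20625050: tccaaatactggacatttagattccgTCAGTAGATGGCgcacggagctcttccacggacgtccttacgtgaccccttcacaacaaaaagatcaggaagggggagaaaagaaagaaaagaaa
The left edge had a match 2 bp from its summit. Of the 24 CTCF sites of the window, 13 (54.2%) held such a match anywhere in the site, beside 677 of 1203 sites (56.3%) on the rest of chromosome 9. In the 121 bases around the summit, 11 of 24 sites held one, whereas 130 of 33057 consecutive stretches of 121 bases of the window did (0.393%).

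**Figure D1:**
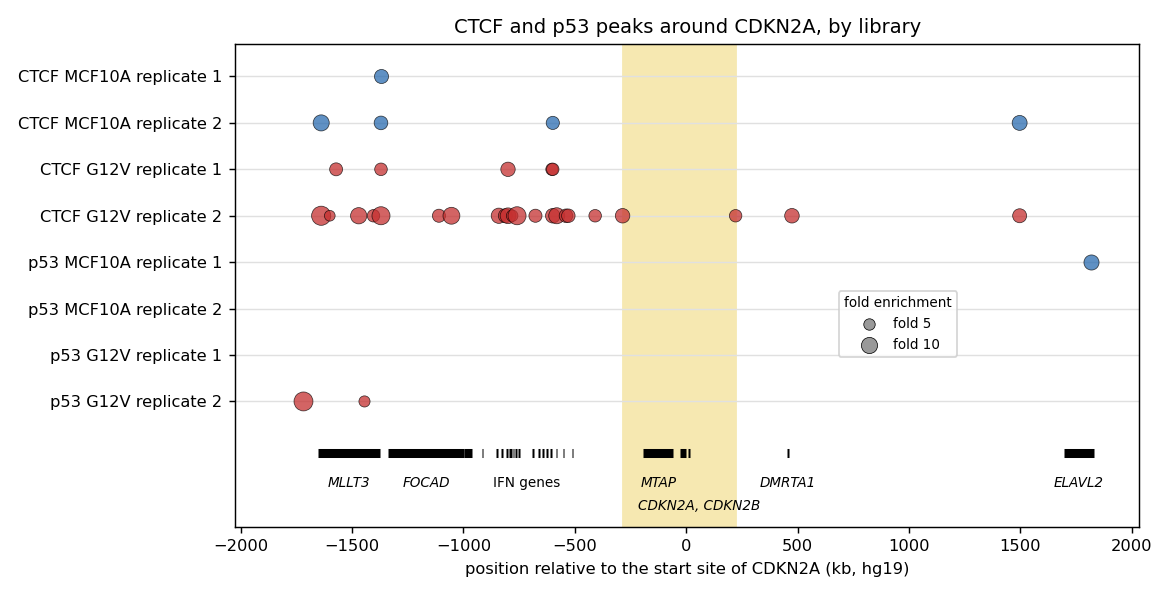
Peaks of the 9p21 window in the 8 libraries, placed by the distance of the summit from the CDKN2A start site (x axis, kb), with the area of a circle in proportion to the fold enrichment; blue is MCF10A, red is G12V and black bars are protein-coding genes. The shaded interval of 507.17 kb around MTAP, CDKN2A and CDKN2B holds no peak in any library, and of the 32 CTCF peaks 22 belong to G12V replicate 2.

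In all libraries together the interval without a CTCF peak ran over chr9:21709803-22216972, which is 507.17 kb. Both of its edges rested on 1 library, G12V replicate 2. The left edge was a peak of 8.07 fold enrichment (summit pileup plus 1 over local background plus 1) with 19.7 reads at the summit over a background of 1.56, after scaling of the ChIP reads to the input by the caller. It ranked 19774 of the 27678 peaks of its list by −log10 p. The right edge was weaker, with 5.98 fold enrichment, 10.3 reads over 0.892, and rank 25768. Without G12V replicate 2 the interval ran over chr9:21396467-23492174, or 2096 kb.

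Taken by library, the interval around CDKN2A was 5091 kb in MCF10A replicate 1, 2096 kb in MCF10A replicate 2, 5327 kb in G12V replicate 1 and 507.17 kb in G12V replicate 2. The 2 cell types overlapped, since the longest and the shortest interval were both from G12V. In MCF10A replicate 1 no CTCF peak was listed between the site upstream of MLLT3 and chr9:25716342. Of the intervals between neighbouring peaks of the same list that hold no assembly gap, 0.107%, 0.210%, 0.0423% and 2.69% were as long or longer, in that order of libraries. Among the 28885 intervals between the sites of all CTCF libraries, 698 were at least 507.17 kb long (2.42%), beside a median of 45.0 kb. On chromosome 9 it was 21 of 1220.

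The interval around CDKN2A was not the longest of the window. To its right followed 252.7 kb around DMRTA1, 1022 kb without the start of a protein-coding gene (chr9:22470282-23492174), and 1340 kb with the starts of ELAVL2 and IZUMO3 (chr9:23492498-24832393), which runs past the window. The interval around CDKN2A held the starts of 3 protein-coding genes, and 114 intervals of the genome were as long and held as many.

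**Figure D2:**
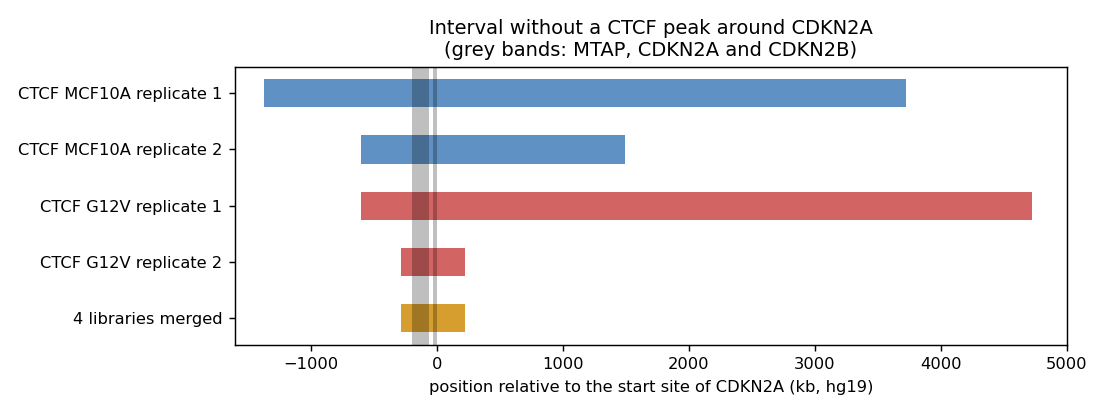
Extent of the interval without a CTCF peak around CDKN2A in each library and in the 4 libraries merged, as distance from the CDKN2A start site (x axis, kb). The intervals range from 507.17 kb in G12V replicate 2 to 5327 kb in G12V replicate 1, and each covers MTAP, CDKN2A and CDKN2B.

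The sequence of the interval holds matches to a loosened form of the CTCF core consensus. The CTCF core consensus was searched as the 12 letters CCANNAGNNGGC on both strands without mismatch, and 13 matches lay in the interval, 7 of them in the body of MTAP, 1 in that of CDKN2A, 2 in that of the antisense RNA CDKN2B-AS1, 2 before MTAP and 1 beyond CDKN2B-AS1. The letter N stands for a free position, where any base was accepted. This pattern was thus looser at those positions than the full consensus that was applied to the CTCF sites. A match to it need not meet the full consensus, even with 1 mismatch. The 10 matches within genes were all intronic. The matches in MTAP nearest to its start, the match in CDKN2A and one in CDKN2B-AS1 are shown with 10 bases on either side, read on the strand of the match, with the match in capitals.
In MTAP, 2684 bp from its start, chr9:21805310-21805341, minus strand: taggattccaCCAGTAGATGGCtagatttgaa
In MTAP, 10521 bp from its start, chr9:21813147-21813178, plus strand: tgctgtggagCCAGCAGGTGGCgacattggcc
In MTAP, 11403 bp from its start, chr9:21814029-21814060, plus strand: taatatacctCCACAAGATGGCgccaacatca
In CDKN2A, chr9:21976627-21976658, plus strand: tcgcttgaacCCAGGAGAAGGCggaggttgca
In CDKN2B-AS1, chr9:22083338-22083369, minus strand: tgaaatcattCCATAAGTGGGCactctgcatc
The interval is by definition the stretch between the nearest CTCF sites, so none of the 13 matches could overlap a CTCF peak. This lack of overlap was fixed in advance and says nothing about binding at the matches. None lay within 500 bp of a peak in any library. Over all chromosomes 8582 of 75982 matches (11.3%) overlapped a peak. To the left of the interval 4 of the 31 matches of the window did (12.9%), each in G12V replicate 2 alone, and to its right 0 of 28 did (interval up to 12.3%). On the rest of chromosome 9 it was 327 of 3397 (9.63%). The upper limit on the right lies above the share of the whole genome, so a lack of peaks there was not detectable with 28 matches. With 1 mismatch allowed to the full core consensus, which is a different rule, there were 23 matches in the interval. Again none was at a peak by definition, and these 23 need not include the 13. On the rest of chromosome 9, 750 of 6917 such matches (10.8%) overlapped a peak.

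CTCF peaks were fewer per Mb in the window than elsewhere in every library. MCF10A replicates 1 and 2 had 1 and 4 peaks in the window and G12V replicates 1 and 2 had 5 and 22, from lists of 11346, 20136, 12004 and 27678 peaks. Each G12V library thus had more than each MCF10A library, while the G12V replicates differed from each other by more than the MCF10A ones. The depths at which the peaks were called, recovered from the lists, were 12.1, 10.9, 13.5 and 10.7 M reads (1 M is 1e6 reads) in the same order. These are depths after the caller's scaling to the input. In the paper's numbers of aligned reads MCF10A replicate 1 is the highest of the CTCF libraries. By either measure the longest list did not come from the deepest library. Per Mb the window had 0.25, 1, 1.25 and 5.5 peaks, beside 2.85, 5.21, 3.38 and 8.04 on the rest of the short arm (to position 47 Mb) and 4.00, 7.10, 4.23 and 9.76 over chromosomes 1 to 22 and X. The density in the window was 8.76% and 19.2% of that of the rest of the arm in MCF10A, and 37.0% and 68.4% in G12V. Matches to the core consensus with free positions were also sparser in the window, at 18 per Mb. Their density was 29.25 per Mb on the rest of chromosome 9 and 26.8 over all chromosomes. Within the window it was 18.13 to the left of the interval around CDKN2A, 25.63 inside it and 15.7 to its right. The part of this lower density in the number of peaks was not tested.

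**Figure D3:**
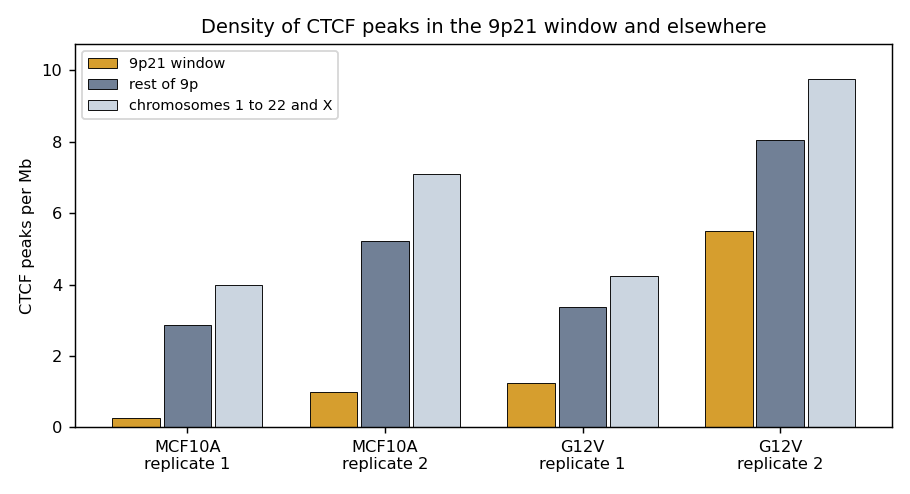
CTCF peaks per Mb (y axis) in the 9p21 window, on the rest of 9p and over chromosomes 1 to 22 and X, 1 group of bars per library with no error bar. In each library the window has the lowest bar, from 0.25 per Mb in MCF10A replicate 1 to 5.5 per Mb in G12V replicate 2.

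The number of peaks in the window was 2.5 ± 2.12 (SD, n = 2) in MCF10A and 13.5 ± 12.02 (n = 2) in G12V, a log2 ratio of 2.43. An exact two-sided permutation test over the 6 assignments of the libraries gave p = 0.333, the smallest value that 2 against 2 libraries allow, so this design cannot reach the threshold. The size of the ratio rested on single libraries. It was 1.00 on the log2 scale without G12V replicate 2 (5 against 2.5 peaks), 3.14 without G12V replicate 1, 1.75 without MCF10A replicate 1 and 3.75 without MCF10A replicate 2. As a percentage of its own list the window took 0.00881% (exact 95% binomial interval 0.000223% to 0.0491%) and 0.0199% (0.00541% to 0.0509%) in MCF10A and 0.0417% (0.0135% to 0.0972%) and 0.0795% (0.0498% to 0.120%) in G12V. The intervals cover counting error only. That of MCF10A replicate 2 overlapped those of both G12V libraries. That of MCF10A replicate 1 overlapped that of G12V replicate 1 but not that of G12V replicate 2. The mean percentage was 0.0143 ± 0.00781 in MCF10A and 0.0606 ± 0.0268 in G12V (exact permutation p = 0.333, n = 2 each). G12V replicate 1 and MCF10A replicate 1, whose lists are the closest in length, had 5 and 1 peaks. In lists cut to the same length of 11346 strongest peaks the means were 3.5 peaks in G12V and 1 in MCF10A, or 0.0308% and 0.00881% of a list. Of the G12V replicate 2 peaks of the window, the cut kept only those ranked 6771 and 7245. All 5 peaks of G12V replicate 1 were kept, the weakest ranked 10799. The higher mean of the cut lists thus rested mostly on G12V replicate 1 and on few peaks.

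The peaks of the window were mostly among the weaker ones of their lists. With rank percentiles running up to 100 for the strongest peak of a list, the median of the window was 46.1 in MCF10A replicate 1 (its only peak), 34.6 in MCF10A replicate 2, 16.6 in G12V replicate 1 and 29.5 in G12V replicate 2. Both MCF10A medians were above both G12V medians, and the means of 40.4 ± 8.10 and 23.1 ± 9.17 (n = 2 each) gave an exact permutation p of 0.333. With equally long lists the difference was smaller, at 31.5 against 24.99, and the exact permutation p was 0.667. The MCF10A mean then rested only on the peaks ranked 6116 in replicate 1 and 9435 in replicate 2. Of the 32 CTCF peaks, 27 had a percentile below 50 and 14 one below 25. The strongest 2 were in G12V replicate 2, in an intron of MLLT3 (14.1 fold, 41.2 reads over 2) and upstream of MLLT3 (12.5 fold, 45.0 reads over 2.68). The median background under the peaks of the window, as a multiple of the genome-wide rate, was 1.18, 1.41, 1.00 and 1.64 in the libraries in the order above, against 1.79, 2.18, 1.99 and 2.27 for all peaks of the lists, and its part in the number of peaks was not tested.

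**Figure D4:**
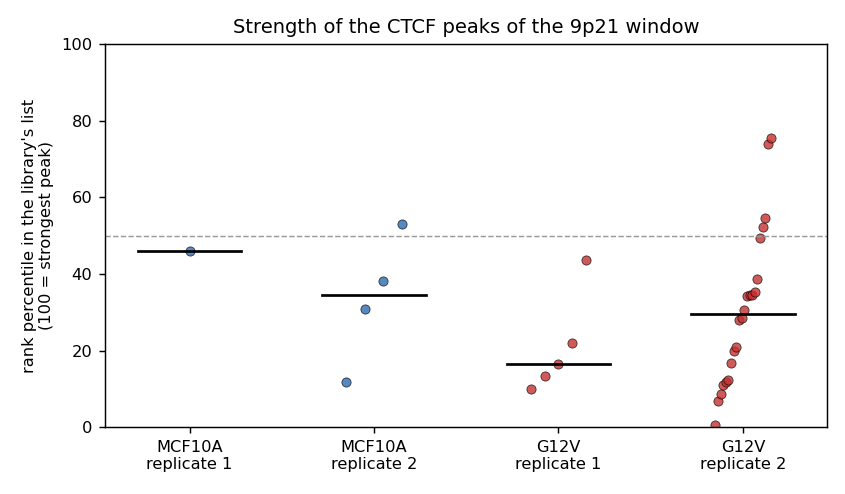
Rank percentile by −log10 p of each CTCF peak of the window within the list of its library (y axis, 100 is the strongest peak), with the median of each library as a black line and percentile 50 dashed. Of the 32 points, 27 lie below 50, and the library medians range from 16.6 to 46.1.

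Sites of the window were seldom found in more than 1 library. A peak in all 4 CTCF libraries was present at 1 of 24 sites (4.17%, exact 95% binomial interval 0.105% to 21.1%), beside 27.5% of all CTCF sites. This site, 2487 bp from the start of MLLT3, a gene known as a fusion partner in leukemia, had 7.63 and 7.16 fold enrichment in MCF10A and 6.10 and 12.5 fold in G12V, with the G12V values on either side of the MCF10A ones. A peak in G12V replicate 2 alone was present at 17 sites (70.8%, 48.9% to 87.4%), beside 25.4% of all sites. In total 19 of 24 sites had a peak in 1 library (79.2%), beside 29.7%. Only 4 sites had a peak in an MCF10A library (16.7%, 4.74% to 37.4%), beside 70.5%, and all 24 had one in a G12V library, beside 96.2%.

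The 4 sites with an MCF10A peak lay on both flanks, and G12V replicate 2 had a peak at each. They were the site in an intron of MLLT3 at chr9:20356319-20356635, with 9.94 fold in MCF10A replicate 2 and 14.1 fold in G12V replicate 2, the site upstream of MLLT3, a site in an intron of MIR31HG, the host gene of a microRNA, at chr9:21395957-21396487, and a site at chr9:23492175-23492497, 334.0 kb from the start of ELAVL2. At the MIR31HG site MCF10A replicate 2 had 6.68 fold, G12V replicate 1 5.95 fold and G12V replicate 2 8.14 fold. The site before ELAVL2, the only one to the right of the locus with an MCF10A peak, had 8.58 fold in MCF10A replicate 2 and 7.53 fold in G12V replicate 2. In MCF10A replicate 2 the locus thus had CTCF peaks on either side, 406.2 kb to the left of MTAP and 1483 kb to the right of CDKN2B. MCF10A replicate 1 had no peak of the window to the right of the locus. Its peak on the left lay 1178 kb from MTAP.

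No site of the window had a peak in both MCF10A libraries and in neither G12V library, beside 0.261% of all sites. The opposite pattern, a peak in both G12V libraries and in no MCF10A library, occurred at 1 site (4.17%), beside 3.33% of all sites. It lies at chr9:21195183-21195464 between IFNA4 and IFNA7, 2 of the type I interferon genes, secreted antiviral cytokines that fill the left flank of the locus. G12V replicate 1 had 7.93 fold with 14.9 reads over 1.006 there and G12V replicate 2 had 9.49 fold with 16.9 reads over 0.882. The interferon genes are near-copies of each other. The site and 3 of its neighbours are shown because their sequences share long runs, on the plus strand around the summit with the consensus match in capitals.
Between IFNA21 and IFNA4, chr9:21183211-21183331: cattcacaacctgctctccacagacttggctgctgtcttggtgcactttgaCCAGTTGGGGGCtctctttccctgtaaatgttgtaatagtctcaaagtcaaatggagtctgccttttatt
Between IFNA4 and IFNA7, chr9:21195272-21195392: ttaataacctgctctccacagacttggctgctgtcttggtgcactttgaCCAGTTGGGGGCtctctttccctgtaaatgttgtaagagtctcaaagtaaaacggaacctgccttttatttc
Between IFNA10 and IFNA16, chr9:21213760-21213880: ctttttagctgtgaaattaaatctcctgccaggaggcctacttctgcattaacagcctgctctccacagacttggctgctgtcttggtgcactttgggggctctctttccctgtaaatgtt
Between IFNA17 and IFNA14, chr9:21235840-21235960: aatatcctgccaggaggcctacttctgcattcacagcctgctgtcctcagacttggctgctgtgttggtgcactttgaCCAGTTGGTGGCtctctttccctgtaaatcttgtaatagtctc
The longest run common to the bases shown of all 4 was 20 bases long. Over the whole sites a run of 21 bases, which lies wholly or partly outside the bases shown, was common to all 4 and was found nowhere else in the window. Since reads were kept by the authors only where they aligned uniquely, and these sites share sequence, the height of these peaks and their absence from other libraries are uncertain. Outside G12V replicate 1 at the site between IFNA4 and IFNA7, these 4 sites had peaks in G12V replicate 2 alone, with 7.51, 9.49, 5.17 and 12.5 fold in the order shown.

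The remaining sites lay on the flanks, mostly on the left, and each had a peak in 1 library. Of the 24 CTCF sites, 10 were intronic, 12 intergenic, 1 touched an exon of FOCAD, a gene for a focal adhesion protein, and 1 an exon of MIR31HG. In introns of MLLT3 a peak of 4.43 fold at chr9:20394947-20395187, the weakest of the window with a rank percentile of 0.683, one of 10.2 fold at chr9:20524783-20525120 and one of 5.98 fold at chr9:20591222-20591444 came from G12V replicate 2. A peak of 6.45 fold at chr9:20423446-20423913 came from G12V replicate 1. FOCAD had 6.58 fold at chr9:20884692-20885328 and 10.9 fold at chr9:20941095-20941421, both in G12V replicate 2 and both with an exact consensus match. Among the interferon genes G12V replicate 2 had 2 more peaks, of 8.93 fold at chr9:21153943-21154276 and of 6.59 fold at chr9:21318354-21318589. Within MIR31HG, G12V replicate 1 had a further peak of 5.78 fold at chr9:21392298-21392568. G12V replicate 2 had 3 others there, of 9.87, 7.04 and 7.06 fold. Between MIR31HG and the locus G12V replicate 2 had 6.04 fold at chr9:21586390-21586698. To the right of the locus it had 8.14 fold at chr9:22469926-22470281, the site shown above, 23280 bp from the start of DMRTA1, a gene for a transcription factor.

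The genes of the window were then compared with all others by whether a CTCF site lay in the gene body or within 10 kb. Of 20098 protein-coding genes 62.6% had one, and of the 25 protein-coding genes of the window 10 did. By library, 1 and 1 genes of the window had a peak in MCF10A and 4 and 9 in G12V, beside 38.1%, 53.4%, 38.1% and 61.3% of all genes. MTAP, CDKN2A and CDKN2B had none in any library. The distance from the MTAP body to the nearest peak was 1178, 406.2, 406.2 and 92.8 kb in MCF10A replicates 1 and 2 and G12V replicates 1 and 2. For CDKN2A the distances were 1343, 571.3, 571.3 and 221.7 kb, and for CDKN2B 1378, 606.4, 606.5 and 207.7 kb. G12V replicate 1 differed from MCF10A replicate 2 by less than 1 kb at each of the 3 genes, so the cell types did not separate. With the sites of all libraries, 7.65% of protein-coding genes lay as far from a site as MTAP, 2.43% as far as CDKN2A and 2.697% as far as CDKN2B. ELAVL2, a gene for a neuronal RNA-binding protein at the right end of the window, was 197.6 kb from its nearest site, and 2.90% of genes lay as far.

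Among the interferon genes, 8 of 16 had a CTCF site within 10 kb, in 0 and 0 by MCF10A library and 3 and 7 by G12V library, to be read against the 62.6% of all protein-coding genes and the shares by library given above. Of the 2 long noncoding RNA genes, MIR31HG had a peak in 3 libraries and CDKN2B-AS1 in none, with the nearest site 88.9 kb away. Genes that work with the locus products were used as a reference. Of 13 cell cycle genes 11 had a CTCF site, beside 62.6% of all genes, and 9 had a peak in each of the 4 libraries, beside 31.1% of all genes. Among these 9 were CDK4, the kinase that p16INK4A inhibits, CCND1, which encodes cyclin D1, and CDKN1A, which encodes the p53-induced inhibitor p21. CDK6, the other kinase held by p16INK4A, had peaks in all but MCF10A replicate 1, and RB1 had them in the second replicates of both cell types. Without a site were CDKN2C, which encodes a further inhibitor of the INK4 family, with 84.2 kb to its nearest site, and MDM2 with 26.4 kb. Of 6 genes of methionine salvage and methyl donor use, 3 had a site against the same 62.6%, namely ENOPH1, MAT2A and PRMT5, with MAT2A and ENOPH1 in all 4 libraries, while MRI1, APIP and ADI1 had none.

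**Figure D5:**
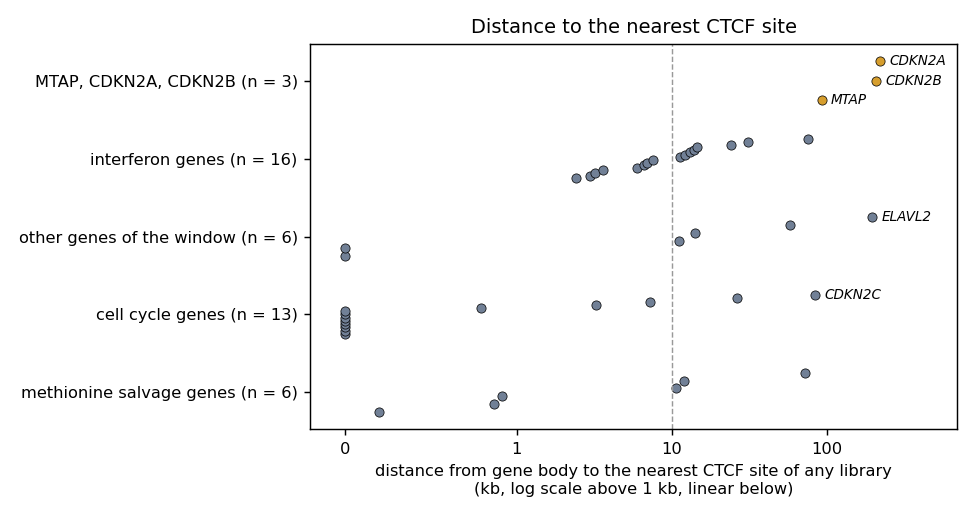
Distance from the gene body to the nearest CTCF site of any library (x axis, kb, log scale above 1 kb), 1 point per gene, with 10 kb dashed. MTAP, CDKN2A and CDKN2B lie at 92.8, 221.7 and 207.7 kb, farther than all 13 cell cycle genes, and ELAVL2 at 197.6 kb is as far out as they are.

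For p53 the window held 3 sites, each from 1 library. MCF10A replicates 1 and 2 had 1 and 0 peaks and G12V replicates 1 and 2 had 0 and 2, from lists of 1718, 885, 477 and 2619 peaks. The lists were called at 21.4, 20.1, 9.26 and 23.9 M reads, after any scaling by the caller. The 2 libraries with the longest lists thus held all 3 peaks, and the cell types overlapped. The strongest was in G12V replicate 2 and had 13.8 fold with 54.1 reads over 3 and ranked 520 in its list. It was intergenic, 345521 bp from the start of MLLT3. Of the other sites, one lies in an intron of MLLT3 at chr9:20550874-20551053, with 4.79 fold in G12V replicate 2. The other lies in an intron of ELAVL2 at chr9:23814326-23814549, 11.9 kb from its start, with 8.78 fold in MCF10A replicate 1. The nearest p53 site of any library was 1252 kb from MTAP, 1417 kb from CDKN2A and 1452 kb from CDKN2B. The p53 list of G12V replicate 1 had no peak from chr9:17889253 to chr9:72591141, a stretch of the chromosome that includes assembly gaps. At the depths and thresholds of these lists p53 binding at MTAP, CDKN2A and CDKN2B was not detected.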

How the data were processed

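ChIP-seq for CTCF and p53 gave 8 deposited peak lists, 1 per library, and the 8 inputs entered only through the peak caller. The authors aligned reads to hg19 with Bowtie, kept uniquely aligned reads and called peaks with MACS at default settings. Each deposited list holds a score, a fold enrichment that is the ratio of reads at the summit plus 1 to the local background plus 1, −log10 p and −log10 q, and the summit. Groups and replicate numbers came from sample titles.

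The summit pileup, the background and the calling depth were solved from fold and p for 100% of peaks and checked on simulated data. Peaks were merged into sites over chromosomes 1 to 22 and X, with genes from GENCODE 44 mapped to GRCh37 (hg19). Intervals with an assembly gap of at least 1000 bp were left out. Numbers of peaks were compared by exact permutation tests (Python 3.11.15, scipy 1.17.1), which cannot go below 0.333 here. Because the caller thresholded peaks at a q-value of 5%, a missing peak was not detected at that depth and is not shown to be unbound. Binomial intervals cover counting error only, as peaks are not independent.

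Named genes were MTAP, CDKN2A and CDKN2B, all protein-coding genes of the window, CDKN2B-AS1, MIR31HG, and a cell cycle and a methionine list. Named sites were the edges of the interval, every p53 site, sites in both libraries of 1 cell type only, and the site of all 4 libraries. The MIR31HG and ELAVL2 flank sites and the interferon neighbours were named after their values were seen. Members and lists were chosen with earlier results of these data known. Alternatives were equal list lengths, −log10 q of at least 5, other overlaps, motif rules and gene flanks, and leaving out each replicate. A member of the cell cycle list and the sequences of 2 sites are not reported here.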

Additional observations from a re-analysis of the deposited data

How the results depend on the processing

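The higher number of CTCF peaks in the window in G12V kept its direction under all 7 alternatives, with log2 ratios of 1.00 to 3.75 on leaving out a replicate, and so did the share of a list (differences of 0.0273 to 0.0651 percentage points on leaving out a replicate) and the lower median rank percentile (−23.8 to −10.8). With lists of equal length these differences were smaller, at a log2 ratio of 1.81, 0.0220 percentage points and −6.49. Only these differences between the cell types have a direction that could change. For each measure both G12V libraries lay on the same side of both MCF10A libraries. Leaving out a replicate or blocking by replicate number therefore could not reverse it. Only equal list lengths and the −log10 q threshold could, and neither did. Of all 51 alternatives, 10 moved a count by more than 1.5 times or a share beyond its binomial interval. G12V replicate 2 set the interval around CDKN2A. Without it the interval was 2096 kb with 39 motif matches and the number of p53 sites was 1, while without any other replicate these were 507.17 kb, 13 matches and 2 or 3 p53 sites. The share of sites in all libraries kept was 4.17% to 14.3% on leaving out a replicate. With lists of equal length the interval was 4320 kb, 0% of 6 sites had a peak in all 4 libraries and there were 0 p53 sites, since fewer peaks entered. The full consensus with 1 mismatch gave 23 matches in the interval. Counted in the gene body only, 2 of 25 genes of the window had a CTCF site (42.2% of all genes), and with 100 kb either side 22 of 25 did (93.0% of all genes), among them 1 of MTAP, CDKN2A and CDKN2B. Replicate numbers are not stated to mark a shared batch, and across 29064 CTCF sites the difference between replicates 1 and 2 correlated at 0.0766 between the cell types. With the replicate number as a block the log2 ratio was 2.39, the difference in share 0.0462 percentage points and that in rank percentile −17.3, each with an exact p of 0.5, the smallest that 2 pairs allow. With 2 replicates per group and a caller threshold, neither absence of DNA nor absence of binding can be read from a missing peak.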
